A study of Mus musculus with 1 sample.

Results

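The 10 genes described here are inhibitors of cyclin-dependent kinases (CDKs) and genes of the p53 axis: Cdkn1a, Cdkn1b, Cdkn2a, Cdkn2b, Cdkn2c, Cdkn2d, Trp53, Mdm2, Rb1 and the galactosidase-like gene Glb1l. They were chosen by gene symbol, and each had 1 row among the 23282 rows of the expression table. The study examined serum/glucocorticoid related kinase 1 (SGK1) in glia, and senescence of cultured glia was among its readouts. RNA-seq values were available for 1 control library of primary mouse glia derived from the ventral midbrain (VM) of ICR (CD-1) outbred pups at postnatal day 5, grown as mixed glia and given the vehicle DMSO according to the column name. The same column name begins with mAst, which could stand for mouse astrocytes, whereas the culture is described as mixed glia. Glia treated with an SGK1 inhibitor were not analysed here, so no contrast was made. There was no replicate, and none of the values below has an error between cultures.

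CDK inhibitors stop the cell cycle before DNA replication. Proteins of the INK4 family (p16INK4a from Cdkn2a, p15INK4b from Cdkn2b, p18INK4c from Cdkn2c, p19INK4d from Cdkn2d) bind CDK4 and CDK6, whereas those of the CIP/KIP family (p21 from Cdkn1a, p27 from Cdkn1b) bind several cyclin-CDK complexes. Both brakes act on the retinoblastoma protein encoded by Rb1, which in its unphosphorylated form holds E2F transcription factors. The transcription factor p53, encoded by Trp53, induces Cdkn1a after DNA damage, and is itself degraded through the ubiquitin ligase encoded by Mdm2, which p53 induces and which the second Cdkn2a product, p19Arf, blocks. Astrocytes and other cells that become senescent in culture typically accumulate p16INK4a and p21.

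All 10 genes were detected, meaning a value of 10 or more normalised reads, as were 67.2% of all rows in the table. Read counts usually grow with the length of a transcript, so genes were compared by their level per kb, which is the value per kb of annotated exon and per 1000000 of the sum of all values. The authors' normalisation is not stated, and whether it already adjusted for length was not tested, so orders without division by length are also given. The median level per kb was 10.7 for the 10 genes and 3.72 for all detected genes. Of the 10 genes, 8 lay above that median of all detected genes. The 5 highest genes per kb were Cdkn2b, Cdkn1a, Cdkn2a, Mdm2 and Trp53, and Glb1l and Cdkn1b were the lowest. The INK4 family was thus split, with both genes of the Cdkn2a-Cdkn2b locus near the top and Cdkn2c and Cdkn2d in the middle, and the CIP/KIP family was split between Cdkn1a and Cdkn1b.

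**Figure D1:**
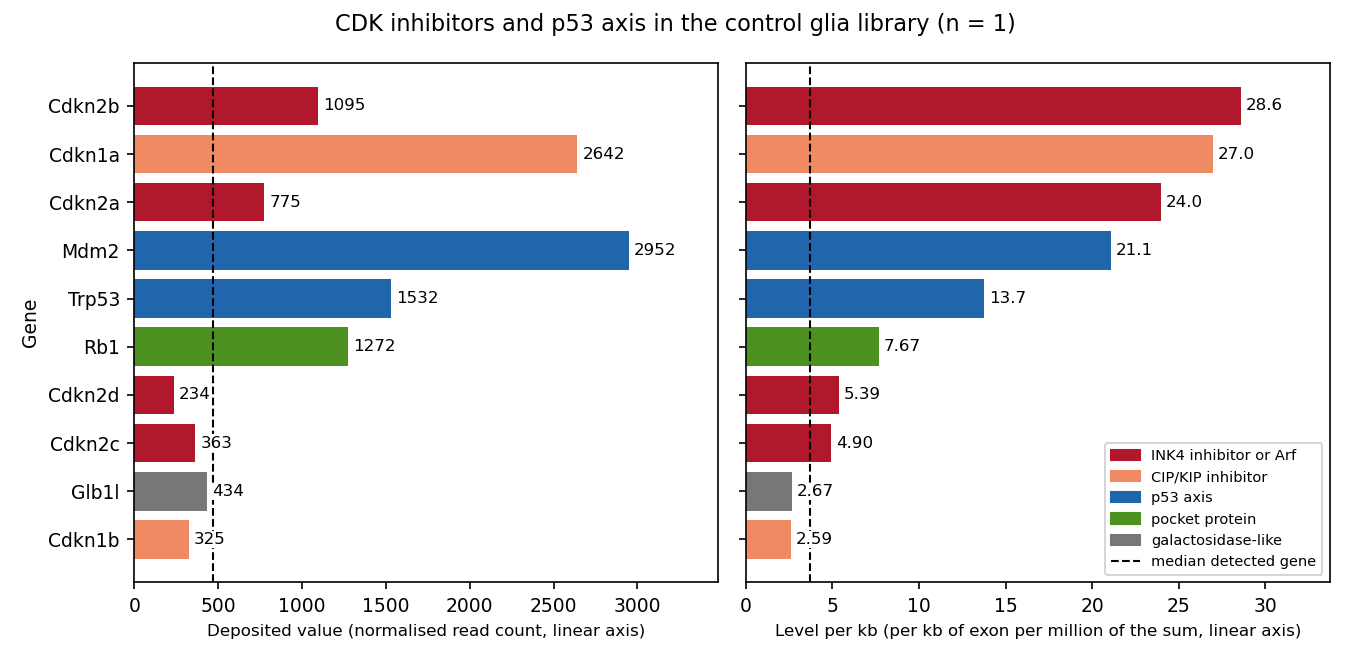
Deposited values (left, normalised read count) and levels per kb (right, per kb of exon per 1000000 of the sum) of the 10 genes in the 1 control library, both on linear axes starting at 0. Bars are coloured by family and dashed lines mark the median detected gene (469 and 3.72). Mdm2 and Cdkn1a have the highest values, whereas Cdkn2b and Cdkn1a lead per kb.

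The total of the values was 27569507, and the median value among the 15648 detected genes was 469. The number of reads behind these values is unknown. Markers of astrocytes and microglia were detected throughout (10 of 10 genes each, with level per kb from 5.15 to 148 for astrocyte genes and from 8.73 to 1138 for microglial genes). Markers of mesenchymal cells (8 of 8, from Lum at 6.74 to Acta2 at 438 per kb) and of the oligodendrocyte lineage (9 of 9, the lowest being Sox10 at 0.571 per kb) were detected too. Of the neuronal markers 6 of 8 were detected (Slc17a6 at 0 and Syt1 at a value of 6, the highest being Stmn2 at 24.6 per kb), and of the endothelial markers 4 of 6 (Tek at 0 and Cldn5 at a value of 3, the highest being Flt1 at 6.52 per kb). Of all rows, 67.2% were detected, so detection alone says little about the neuronal and endothelial markers. In each of these 2 groups of markers, 1 gene lay above the median level per kb of all detected genes. The median level per kb was 85.6 for microglial, 26.96 for mesenchymal and 24.8 for astrocyte markers. By these median levels, and not by detection, the library is a mixture of cells. Which cells carried the RNA of the 10 genes was not tested, and a small number of cells with much RNA cannot be told apart from many cells with little.

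Cdkn2a had a value of 775, or 28.1 per 1000000 of the sum. Its level per kb was 24.0, higher than that of 86.3% of detected genes. The gene lies on chromosome 4 (GRCm38, 89274471 to 89294653, minus strand) and encodes unrelated proteins from a pair of start sites. The transcript for p16INK4a (Cdkn2a-201, 852 bases) and that for p19Arf (Cdkn2a-202, 895 bases) have separate first exons, of 207 and 320 bases. They shared 575 of 1172 exon bases (49.1%). Of the 317 coding bases in both transcripts, 0 were read in the same frame. The deposited value is for the gene as a whole, so it does not say how much of it was p16INK4a, the inhibitor, and how much was p19Arf, the blocker of Mdm2.

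Cdkn2b, whose protein p15INK4b is a target of TGF-β signalling, had a value of 1095, or 39.7 per 1000000. Its level per kb of 28.6 was the highest of the 10 genes and exceeded that of 88.4% of detected genes. Cdkn2b lies beside Cdkn2a on the same strand (chromosome 4, 89306299 to 89311039), with 11645 bases between the genes. The level of Cdkn2a over that of Cdkn2b was -0.25 on the log2 scale. This order was not stable, since the difference was 0.14 with the length of the longest transcript and -0.88 with the coding length.

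The bases before the start sites of the 3 inhibitor genes with the highest levels per kb are shown, because each of these genes is read as 1 value although Cdkn2a and Cdkn1a have more than 1 start. For Cdkn1a only the window with a match to a p53 pattern, defined below, is printed, and it was chosen for that match. The window before its other start is not printed. The windows came from RefSeq on GRCm38.p6, which held 12 windows for 9 of the 10 genes and none for Rb1. Each window is printed 5′ to 3′ on the strand of its gene, and stops before the first annotated exon base. In the Cdkn2a and Cdkn2b windows, capitals mark GC boxes (GGGCGG on either strand) and E2F sites (TTTCCCGC, TTTCGCGC, TTTGCCGC or TTTGGCGC on either strand). In the Cdkn1a window, capitals mark an exact match to a p53 pattern. The pattern is the half-site RRRCWWGYYY and its repeat after at most 13 bases (R is A or G, W is A or T, Y is C or T). The lower-case bases tgacatgttc right after the capitals differ from the half-site only at their first base. With the half-site before them they form another, inexact candidate, which is not marked.
Cdkn2a before the p19Arf start, chr4:89294654-89294869, minus strand: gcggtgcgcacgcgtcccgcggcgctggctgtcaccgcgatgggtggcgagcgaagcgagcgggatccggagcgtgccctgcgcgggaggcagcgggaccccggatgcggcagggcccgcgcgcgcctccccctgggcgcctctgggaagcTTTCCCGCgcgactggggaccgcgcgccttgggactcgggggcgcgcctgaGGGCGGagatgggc
Cdkn2a before the p16INK4a start, chr4:89282193-89282442, minus strand: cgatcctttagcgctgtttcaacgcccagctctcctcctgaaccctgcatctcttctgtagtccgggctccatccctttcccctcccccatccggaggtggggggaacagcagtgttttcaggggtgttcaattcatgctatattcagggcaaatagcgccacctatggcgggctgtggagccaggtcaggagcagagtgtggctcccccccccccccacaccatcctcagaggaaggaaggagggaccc
Cdkn2b, chr4:89311040-89311282, minus strand: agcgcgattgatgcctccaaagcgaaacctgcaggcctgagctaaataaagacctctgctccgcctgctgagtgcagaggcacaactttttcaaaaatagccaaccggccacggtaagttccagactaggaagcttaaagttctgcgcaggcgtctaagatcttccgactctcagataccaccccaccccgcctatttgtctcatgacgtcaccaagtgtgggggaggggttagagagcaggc
Cdkn1a before its upstream start, chr17:29090729-29090975, plus strand: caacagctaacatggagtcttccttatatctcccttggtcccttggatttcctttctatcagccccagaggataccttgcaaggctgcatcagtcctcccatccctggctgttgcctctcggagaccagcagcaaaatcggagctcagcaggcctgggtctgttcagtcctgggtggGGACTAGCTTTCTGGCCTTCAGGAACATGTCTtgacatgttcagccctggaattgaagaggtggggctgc

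The Cdkn2a starts lie 12427 bases apart, and their windows of 250 bases differed in composition. The p19Arf window held 78.4% G and C, 1 E2F site and 2 GC boxes, of which 1 lies within the annotated exon and is not printed. The p16INK4a window held 60.0% G and C and neither motif, as did the Cdkn2b window with 53.6%. The median over all 32851 windows in the RefSeq table was 52.4%. Among those windows 1.86% held an E2F site and 32.7% a GC box, against 1 and 6 of the 12 windows of the 10 genes. The Cdkn1a window held 1 exact match to the p53 pattern, spanning 32 bases and beginning 73 bases before the start. Inexact matches were not counted, and which stretch p53 uses was not tested. A match of this kind, with up to 13 bases between its parts, was in 21 of all 32851 windows and in 1 of the 12. The other Cdkn1a start lies 2790 bases downstream, and its window held 2 GC boxes and no such match. These matches describe letters in fixed windows, and no binding was measured.

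Cdkn2c and Cdkn2d, the other INK4 genes, were lower. Cdkn2c (chromosome 4, 109660876 to 109667189, minus strand) had a value of 363 and a level per kb of 4.90. Cdkn2d (chromosome 9, 21288410 to 21291407, minus strand) had a value of 234 and a level per kb of 5.39. They exceeded 56.3% and 58.4% of detected genes, close to the middle of the table. Their difference was -0.14 on the log2 scale (Cdkn2c over Cdkn2d), and became 0.62 with the coding length, so their order depends on the length used. Cdkn2a and Cdkn2b stood above both under all 4 definitions of length.

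The INK4 proteins are alike in sequence, and the similarity was unequal among them. Products translated from the annotation had 168 residues for p16INK4a, 130 for p15INK4b, 168 for p18INK4c and 166 for p19INK4d. In a global alignment p16INK4a and p15INK4b, the products of the neighbouring genes, were identical at 66.2% of the shorter protein. The other INK4 pairs were identical at 37.5% to 50.8%. At the RNA level no stretch of 300 bases with at least 90% identity to another gene was found for any of the 4 INK4 genes, and none of them shared exon bases with another annotated gene.

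Cdkn1a, the gene of the CDK inhibitor p21, had a value of 2642, or 95.8 per 1000000. Its level per kb of 26.97 exceeded 87.7% of detected genes. Cdkn1a lies on chromosome 17 (29090976 to 29100727, plus strand). Cdkn1b, the gene of p27, had a value of 325 and a level per kb of 2.59, higher than 41.9% of detected genes and the lowest of the 10. Cdkn1b lies on chromosome 6 (134920401 to 134925513, plus strand). Cdkn1a stood 10.4-fold above Cdkn1b (3.38 on the log2 scale), and between 3.33 and 4.15 under the other lengths. Exons of Cdkn1a overlapped a gene model on the opposite strand, AC167363.2, over 273 bases. The proteins p21 (159 residues) and p27 (197 residues) were identical at 39.0% of p21. Levels of p27 are known to be set largely by protein turnover, which these data do not measure.

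Among all 8 CDK inhibitor genes, which add Cdkn1c and Cdkn3 to the 6 named above, 8 were detected and 5 lay above the median detected gene. For this and every list below, the share detected among all rows was 67.2%, so detection alone says little about a list. Cdkn1c, which encodes p57, had a value of 116 and a level per kb of 2.06. Cdkn3, which encodes a phosphatase acting on CDK2, had a value of 116 as well and a level per kb of 1.77. Annotated exons of Cdkn1c share 625 bases with the antisense gene Gm44732, whose reads cannot be told apart where strand was not used. The median of the list was 5.15 per kb. It lay above the median detected gene by 0.47 on the log2 scale, but below it without division by length (-0.45) or with a minimum of 100 (-0.24).

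Cdkn2a and Cdkn1a, the inhibitor genes most used as marks of senescence, stood close together per kb, with a difference of -0.17 on the log2 scale (Cdkn2a over Cdkn1a). Cdkn1a was the higher of the pair under all 4 lengths, but the size of the difference was set by the length. It was -0.55 with the longest transcript, -0.56 with the basic transcripts and -1.86 with the coding length. Their values, 775 and 2642, differed more than their levels per kb, because the exons of Cdkn1a cover 3553 bases against 1172 for Cdkn2a.

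Trp53 had a value of 1532, or 55.6 per 1000000. Its level per kb of 13.7 exceeded 78.0% of detected genes (chromosome 11, 69580359 to 69591873, plus strand). The annotation holds a processed copy of the gene, Trp53-ps, that matched Trp53 over 1170 bases at 94.9% identity. This copy had no row in the table, and how reads that fit both places were treated is not given in the sources used here. The family members Trp63 and Trp73 were at 0 and at 4, below the detection minimum. Trp53 was thus the 1 gene of its family that was detected.

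Mdm2, the ubiquitin ligase of p53, had the highest value of the 10 genes, 2952, or 107 per 1000000. Its level per kb was 21.1 (chromosome 10, 117688875 to 117710758, minus strand), higher than that of 84.7% of detected genes. Mdm2 stood 1.53-fold above Trp53 (0.62 on the log2 scale). The difference kept its direction under all 4 lengths, from 0.19 with the basic transcripts to 1.00 with the longest transcript. Mdm4, a relative that inhibits p53 and is identical to Mdm2 at 34.4% of the shorter protein, had a value of 797 and a level per kb of 1.95. Mdm4 stood below Mdm2 by -3.43 on the log2 scale, and by -1.89 with the coding length, its annotated exons covering 14798 bases. Transcripts of Mdm2 and Cdkn1a also held stretches of 100 bases or more that matched 952 and 1480 other genes at 90% identity or more, so that reads within these stretches could also fit elsewhere.

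Of 16 genes of the p53 family and its regulators, 14 were detected and 8 lay above the median detected gene. Besides Mdm2 and Trp53, the highest was Kat5, an acetyltransferase of p53, with a value of 1288 and a level per kb of 13.3. The lowest detected was Atr, a kinase of the DNA damage response, with a value of 396 and a level per kb of 0.608. The list median was 3.65 per kb, next to the 3.72 of all detected genes. Per kb, the high levels of Mdm2 and Trp53 were therefore not shared by most of the list. Without division by length the list median lay above the median detected gene by 0.88 on the log2 scale.

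The 16 p53 target genes of arrest and repair were all detected, and 13 of them lay above the median detected gene. The list median was 8.86 per kb. Ccng1, which encodes cyclin G1, was the highest with a value of 4076 and a level per kb of 42.1. Gadd45a, a DNA damage gene, followed with a value of 1345 and a level per kb of 27.7, and Cdkn1a was the third. The lowest was Rrm2b, a subunit of ribonucleotide reductase, with a value of 143 and a level per kb of 0.568. Cdkn1a was thus among the higher of these p53 targets, without being the highest.

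The 11 p53 target genes of cell death were also all detected, with 6 above the median detected gene and a list median of 3.88 per kb. Bax, a pore-forming BCL2 relative, had a value of 2048 and a level per kb of 47.1. Fas, a death receptor, had a value of 1688 and a level per kb of 29.7, and Ei24 a value of 1712 and a level per kb of 12.8. Pidd1, a death-domain protein, was the lowest with a value of 66 and a level per kb of 0.529. These genes have other inputs besides p53, and no activity of p53 was measured.

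**Figure D2:**
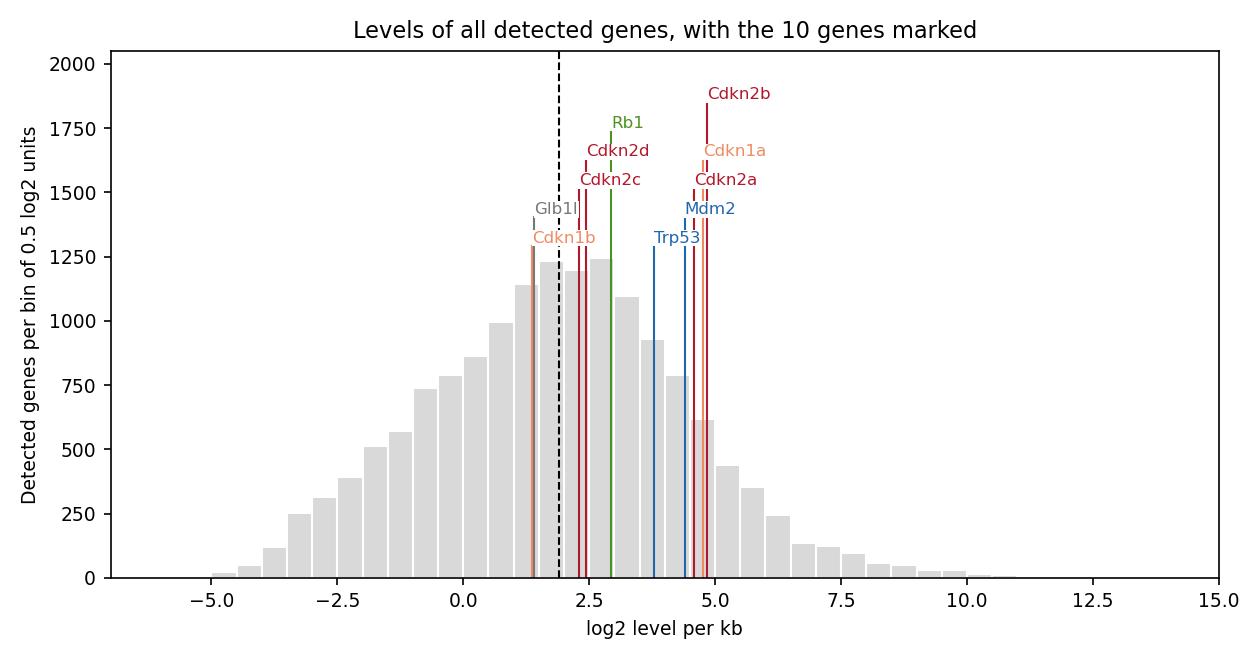
Numbers of detected genes by log2 level per kb, in bins of 0.5, with the 10 genes marked by coloured lines and the median detected gene by the dashed line. Cdkn1b and Glb1l lie left of the median, and Cdkn2b, Cdkn1a, Cdkn2a and Mdm2 lie in the upper shoulder of the distribution.

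Rb1 had a value of 1272, or 46.1 per 1000000, and a level per kb of 7.67, higher than 66.6% of detected genes (chromosome 14, 73183673 to 73325822, minus strand). The other pocket proteins were lower. Rbl1, which encodes p107, had a value of 539 and a level per kb of 3.26, and Rbl2, which encodes p130, had a value of 660 and a level per kb of 3.17. Rb1 stood above Rbl1 by 1.23 and above Rbl2 by 1.28 on the log2 scale, and kept both directions under all 4 lengths. The pocket proteins p107 and p130 were identical to each other at 51.6% and to the Rb1 product at 31.3% and 30.4%. Exons of Rb1 overlapped those of Rcbtb2 on the opposite strand over 488 bases (8.11% of Rb1), and Rcbtb2 had a value of 2593. They also overlapped Lpar6, which lies within Rb1 on the opposite strand, over 408 bases. Without strand information such reads could belong to either gene.

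E2F factors, which pocket proteins bind, were detected in all 10 cases, with 5 above the median detected gene. E2f1 was the highest with a value of 1769 and a level per kb of 20.3. Its partner Tfdp1 had a value of 2043 and a level per kb of 20.2, and E2f4, which works mainly as a repressor with p107 and p130, had a value of 1330 and a level per kb of 19.7. The lowest was E2f7, an atypical repressor, with a value of 205 and a level per kb of 0.825. The 3 highest stood above Rb1 per kb.

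The kinases and cyclins on which the inhibitors act were detected in all 9 cases, with a list median of 7.69 per kb. Ccnd1, which encodes cyclin D1, had a value of 6430 and a level per kb of 49.5, above all 10 genes described here. Exons of Ccnd1 share 1100 bases with LTO1 on the opposite strand. Cdk4 had a value of 1814 and a level per kb of 20.3, whereas Cdk6 had a value of 148 and a level per kb of 0.384, the lowest of the list. Of the kinases that INK4 proteins bind, Cdk4 was therefore the higher. Per kb of all exons, Cdkn2a and Cdkn2b lay above Cdk4, and Cdkn2c and Cdkn2d below. Without division by length Cdkn2a (value 775) and Cdkn2b (value 1095) lay below Cdk4 (value 1814) too. Their order against Cdk4 thus depends on the division by length, and was not tested under the other lengths. Exons of Cdk4 share 641 bases with Tspan31 on the opposite strand. Ccna2, which encodes cyclin A2, had a value of 1676 and a level per kb of 14.9. Ccna2 shares 510 exon bases with Exosc9 on the opposite strand, and Exosc9 had a value of 2886. Other genes named in this report, among them Kat5, Gadd45a, Bax, Rbl2 and Ctsa, also share exon bases with other annotated genes.

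Genes of proliferating cells were detected beside the inhibitors in 12 of 12 cases, against 67.2% of all rows, and with a median of 10.5 per kb. Pcna, the sliding clamp of DNA replication, had a value of 4484 and a level per kb of 67.8. Mcm3, a subunit of the replicative helicase, had a value of 2839 and a level per kb of 27.4, and Mki67, the Ki-67 antigen, a value of 6120 and a level per kb of 22.1. The lowest was Bub1, a checkpoint kinase of mitosis, with a value of 367 and a level per kb of 3.06. In this mixture of cells, RNA of CDK inhibitors and RNA of the replication machinery were thus present together. Whether they came from the same cells was not tested.

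Glb1l had a value of 434 and a level per kb of 2.67, higher than 42.5% of detected genes (chromosome 1, 75198236 to 75210813, minus strand). It encodes a protein related to the lysosomal enzyme β-galactosidase. The activity stained as senescence-associated β-galactosidase is known to come from Glb1, a different gene. Glb1 had a value of 1067 and a level per kb of 12.9, and stood above Glb1l by 2.27 on the log2 scale. The difference was smaller under the other lengths, between 1.26 and 1.36, and kept its direction. The proteins were identical at 51.4% of the shorter, and no RNA stretch of 300 bases with at least 90% identity linked the genes. Exons of Glb1l overlapped those of Ankzf1 on the opposite strand over 505 bases (8.55% of Glb1l), and Ankzf1 had a value of 654.

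Other genes of the β-galactosidase family and complex spread widely. Ctsa, the protective protein that forms a lysosomal complex with β-galactosidase, had a value of 31443 and a level per kb of 242. Neu1, the neuraminidase of that complex, had a value of 1429 and a level per kb of 13.9. Glb1l2 had a value of 63 and a level per kb of 0.253, and Glb1l3 was at the detection minimum with a value of 10 and a level per kb of 0.139. Glb1l was thus the highest of the 3 galactosidase-like genes, and Glb1 stood above all of them.

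Regulators of the Cdkn2a locus were detected in 14 of 14 cases, against 67.2% of all rows. The list median was 7.53 per kb, and 10 lay above the median detected gene. Npm1 is in this list as a partner of the p19Arf protein and not of the locus. Npm1, nucleophosmin, which binds p19Arf in the nucleolus, had a value of 20383 and a level per kb of 277, and has processed copies elsewhere in the genome with which reads could be shared. Id1, an inhibitor of ETS and E proteins, had a value of 1725 and a level per kb of 53.9, and Kdm6b, a demethylase that removes the Polycomb mark, had a value of 3734 and a level per kb of 19.5. The lowest was Cbx7, a Polycomb reader, with a value of 76 and a level per kb of 0.425. RNA of repressors and of activators of the locus was thus present beside Cdkn2a.

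Ubiquitin ligase components that control p27, p21 or cyclin E were detected in 8 of 8 cases (67.2% of all rows), with a median of 11.99 per kb. Skp1a had a value of 10475 and a level per kb of 172, Cul1 a value of 2602 and a level per kb of 23.4, and Cks1b a value of 460 and a level per kb of 14.8. Cks1b encodes a cofactor of Skp2 in the recognition of p27. Dtl, which recognises p21, was the lowest with a value of 171 and a level per kb of 0.452. Of the parts that recognise the inhibitors, Cks1b thus lay above the median detected gene. Skp2 (value 197, 0.907 per kb) and Dtl lay below it.

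Senescence-associated secreted and nuclear genes were detected in 16 of 16 cases, against 67.2% of all rows. The list median was 19.4 per kb, and 12 lay above the median detected gene. Igfbp7, an insulin-like growth factor binding protein, was the highest with a value of 13232 and a level per kb of 397, followed by Hmgb1 with a value of 24415 and a level per kb of 176 and Igfbp3 with a value of 6024 and a level per kb of 69.8. The lowest was Mmp13, a collagenase, with a value of 35 and a level per kb of 0.475. Members of this list spanned levels from below Cdkn1b to above Cdkn2b, and many of them have sources other than senescent cells. The list joins genes known to rise in senescence with genes known to be lost in it, among them Lmnb1 (value 1698, 20.8 per kb) and Hmgb2 (value 5426, 65.5 per kb), so its median has no direction with respect to senescence. Of the secreted factors, Il6 (value 34, 0.508 per kb) and Cxcl1 (value 78, 1.51 per kb) lay below the median detected gene.

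**Figure D3:**
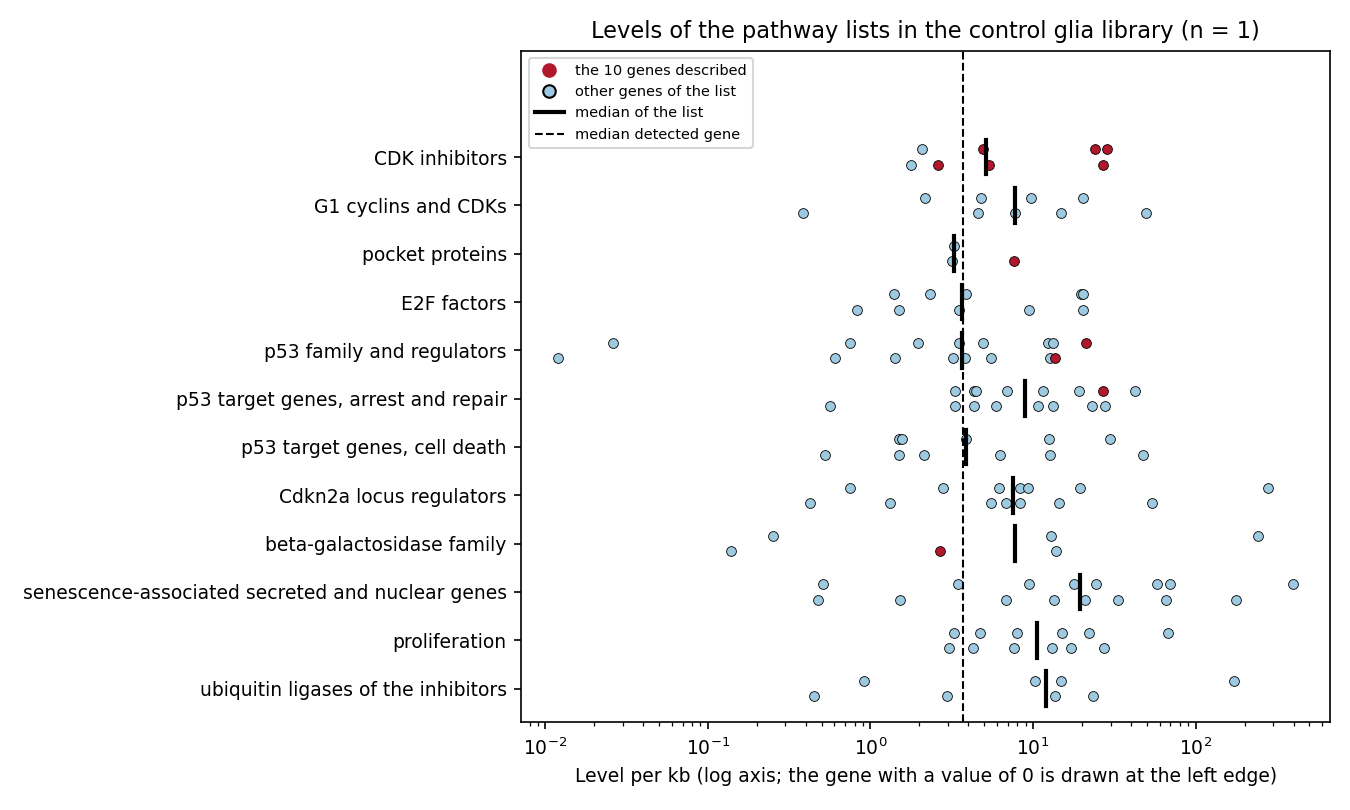
Levels per kb on a log axis for the genes of 12 pathway lists in the 1 control library, with the genes described here in red, other genes in blue, the median of each list as a black bar and the median detected gene (3.72) as a dashed line. Senescence-associated genes have the highest median (19.4) and pocket proteins the lowest (3.26), and Trp63, at 0, is drawn at the left edge.

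The order of the 10 genes per kb, from the highest, was Cdkn2b, Cdkn1a, Cdkn2a, Mdm2, Trp53, Rb1, Cdkn2d, Cdkn2c, Glb1l and Cdkn1b. Without replicates no spread could be set against these differences, so the order was compared under 4 definitions of length (all exons, the longest transcript, the coding sequence and basic transcripts). Of the 45 pairs of genes, 31 kept their order under all 4. The same 5 genes, Cdkn2b, Cdkn1a, Cdkn2a, Mdm2 and Trp53, were the highest under each of them. Without division by length Rb1 (46.1 per 1000000) took the place of Cdkn2a (28.1) among the 5. Among neighbours, Cdkn1a stayed above Cdkn2a, Mdm2 above Trp53 and Trp53 above Rb1. The other neighbours changed places under at least 1 length. Cdkn2b and Cdkn1a differed by 1.06-fold and Glb1l and Cdkn1b by 1.03-fold.

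The place of a gene, meaning the share of detected genes with a lower level, was compared over lengths and filters as well. Cdkn1a lay between 84.1% and 94.1%, Mdm2 between 80.2% and 88.7% and Trp53 between 71.6% and 84.7%. Cdkn2a (61.5% to 88.2%) and Cdkn2b (70.2% to 90.0%) moved more than these genes, their lowest places being those without division by length. Cdkn1b ranged from 25.6% to 60.9% and Glb1l from 26.2% to 56.7%, on both sides of the median. Cdkn2c (43.7% to 67.0%) and Cdkn2d (36.3% to 64.2%) did so as well. Only Rb1, of the lower 5, stayed above the median throughout, between 56.8% and 73.7%.

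**Figure D4:**
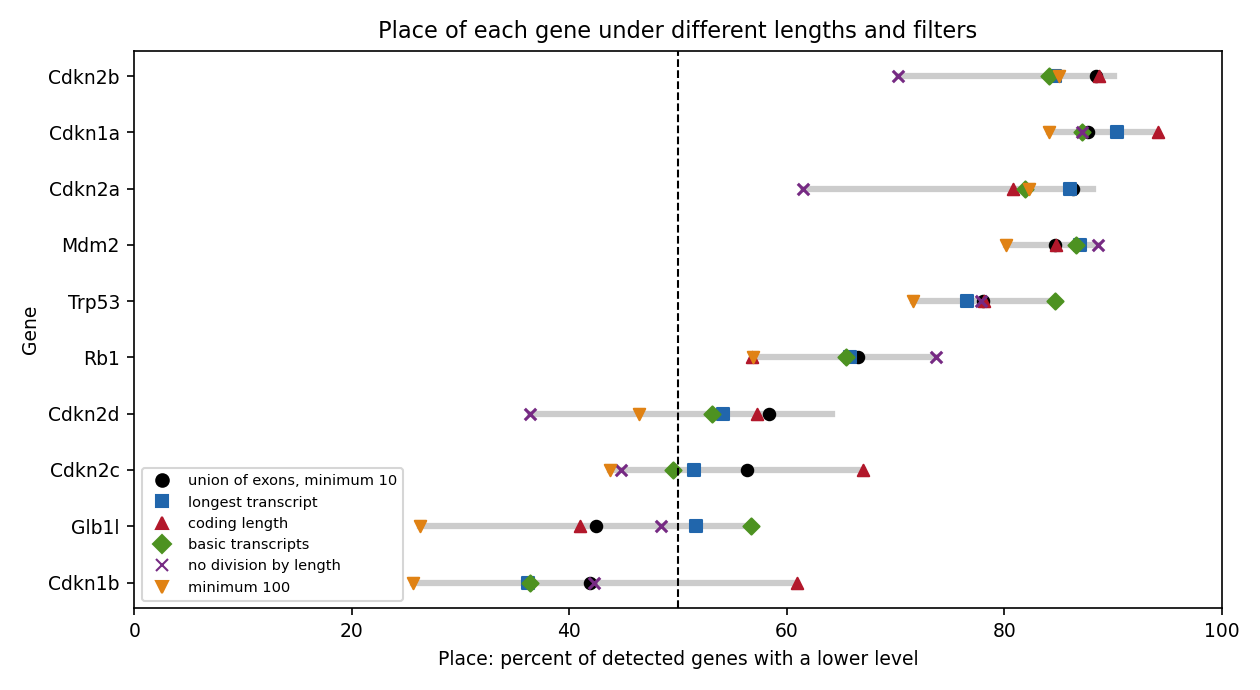
Place of each of the 10 genes, as the percent of detected genes with a lower level, under different lengths and filters. Symbols mark the settings named in the key, grey bars the whole range including 2 settings without a symbol (a minimum of 1, and protein-coding genes only), and the dashed line the middle of the detected genes. Cdkn1a, Mdm2 and Trp53 lie at 71.6% or above in all settings, whereas Cdkn2c, Cdkn2d, Glb1l and Cdkn1b cross the middle.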

How the data were processed

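RNA-seq was performed on 1 control library. Total RNA (1.3 µg) went into SMARTer mRNA libraries. The study's methods state that low-quality bases (under 20) were removed, that alignment to GRCm38/mm10 used STAR, and that HTSeq-count assigned reads to exons of RefSeq (Release 105). The submitters' processing notes instead name TopHat and edgeR, with mm10. Strand setting, treatment of multi-mapped reads and versions are not given in the sources used here. The deposited values are whole numbers that the authors call normalised read counts. The normalisation is not stated, so the deposited values were handled as a score and not as raw counts. Depth is unknown, and no interval or detection limit was computed.

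Values were divided by their sum (per 1000000) and by exon length from GENCODE M21 (22907 of 23282 rows matched, 98.4%). A gene was called detected at a value of 10 or more, and place was computed over 15485 detected genes with a length. The lengths tried were the union of exons, the longest transcript, the coding length and, added after the data were seen, basic transcripts. With no replicate, a value that moved by more than 1.5-fold was called moved. Computation of levels and places was tested on simulated data. Transcripts were compared by BLAST 2.17.0, and proteins, translated from annotated coding sequence, by global alignment (BLOSUM62). Python 3.11.15, numpy 2.4.6, pandas 2.3.3, matplotlib 3.10.9 and Biopython 1.88 were used.

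The 10 genes, the gene lists and the ratios were chosen with earlier results of these data known. In each list the 3 highest genes per kb, the lowest detected gene and genes under the minimum were named, and all genes of lists with up to 6. Of marker lists, the highest and lowest levels are given, except 1 gene that is not reported here. Other genes in the text are the 10 genes and partners in fixed ratios. The rest were named after their values were seen (Lmnb1, Hmgb2, Il6, Cxcl1, Skp2 and genes with overlapping exons).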

Additional observations from a re-analysis of the deposited data

How the results depend on the processing

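All 10 genes stayed detected with minima of 1 and 100. The number above the median detected gene was 8 with the main settings and from 6 to 9 under the alternatives, and their median place was 64.2% to 76.1%. Their median level of 10.7 per kb became 36.8 with the coding length and 16.9 with basic transcripts, because those lengths are shorter. Of the 45 pairs of genes, 40 kept their order with the longest transcript, 37 with the coding length, 38 with basic transcripts and 33 without division by length.

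The list medians are differences from the median detected gene on the log2 scale. With a detection minimum of 100 they fell, because the median detected gene rose, to -0.24 for CDK inhibitors, 0.34 for G1 cyclins and CDKs, -0.90 for pocket proteins, -0.72 for E2F factors, -0.73 for the p53 family and regulators, 0.55 for p53 targets of arrest and repair, -0.65 for p53 targets of cell death, 0.31 for Cdkn2a locus regulators, 0.36 for the β-galactosidase family, 1.67 for senescence-associated genes, 0.79 for proliferation and 0.98 for ubiquitin ligases. With the coding length the medians were 1.97 for G1 cyclins and CDKs, -0.80 for pocket proteins, 0.20 for the β-galactosidase family and 0.81 for proliferation. Without division by length they were -0.45 for CDK inhibitors, 1.84 for G1 cyclins and CDKs, 0.49 for pocket proteins, 0.88 for the p53 family and regulators and 1.42 for senescence-associated genes. As a mean of log2(level per kb + 1), they were 0.44 for the β-galactosidase family, 1.66 for senescence-associated genes and 0.80 for ubiquitin ligases.

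Among the ratios, Mdm4 over Mdm2 was -1.89, Cdkn2a over Cdkn2b -0.88, Cdkn2c over Cdkn2d 0.62 and Cdkn2a over Cdkn1a -1.86 with the coding length. Cdkn1a over Cdkn1b was 4.15 with the longest transcript. Glb1 over Glb1l was 1.36, 1.30 and 1.26 with the longest transcript, the coding length and basic transcripts. No list or ratio that differed by more than 1.5-fold with the main settings changed its direction. No paired analysis was possible because there was 1 library. Depth is unknown and limits how far values near the minimum can be read.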

Other observations

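The lowest values in the table were more often even than odd. Between 2 and 21 there were 1752 rows with an even and 1325 with an odd value, whereas between 22 and 51 there were 673 of each, and between 22 and 101 there were 1336 and 1259. The ranges were chosen after the values were seen. All 10 genes lay above the range from 2 to 21, and the source of the excess was not tested.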
